A study of Mus musculus with 4 samples.

Results

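The comparison was of 2 of the 4 arrays in a mouse left ventricle series: the array labelled WT TAC and the array labelled WT sham, chosen by sample title. WT stands for wild type. TAC is transverse aortic constriction, in which a ligature narrows the aortic arch so that the left ventricle pumps against raised pressure. Both arrays carried left ventricular RNA of C57BL/6 males that were operated on at 10 weeks of age and sampled 4 weeks later, at 14 weeks. In the WT TAC group a 0.3 mm wire set the width of the tie, which lay past the brachiocephalic trunk and before the left carotid. The WT sham group had the operation without the tie. The other 2 arrays came from mice labelled STIM1KO, for the calcium sensor STIM1, after the same 2 operations, and are set beside the WT pair only where they show how its values lie. The labels do not say whether 1 mouse or a pool of mice gave the RNA of an array.

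With 1 array in each group there is no replicate. No test, p-value or spread between animals can be had, and every difference is one between these arrays. The labels give an average ratio of heart weight to body weight, without a unit or spread, of 4.1 for WT sham and 6.7 for WT TAC, which is 1.63 times as much. For STIM1KO the averages were 4.5 after sham and 4.9 after TAC, 1.09 times as much. The WT TAC group was therefore the one with the heavier hearts.

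A ventricle under raised pressure adds contractile protein to each muscle cell, so that its wall thickens while the number of muscle cells stays about the same. The growing cells are known to take up again part of the gene program of the fetal heart, in which natriuretic peptides, beta-myosin heavy chain and skeletal alpha-actin are high and proteins of the sarcoplasmic calcium store are low. Fibroblasts may add collagen, and fuel use may move from fatty acids towards glucose. Calcium is one of the signals for this growth: the phosphatase calcineurin and the CaM kinases read it, and STIM1 with its Orai channels is one way for it to enter the cell.

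The intensities were normalized to 1 common distribution and a gene was kept when no array lacked a value for it and its mean log2 intensity was at least 4.87, an intensity of 29.3, which left 7020 of 14039 genes. Counts for a gene list cover its members that passed. The 4 arrays had 21115 to 21782 probes with a value. The Stim1 probe, which was below this level, read 41.6 on WT sham and 33.9 on WT TAC, against 20.7 and 13.8 on the STIM1KO arrays, so the targeted gene was lower on both arrays labelled STIM1KO. Of 16 defining markers of ventricular muscle 15 had a value on all 4 arrays, among them Myl2, the ventricular regulatory light chain, at 58086 on each WT array. Such a difference of exactly 0 arises where a gene has the same rank on both arrays. The probe named Gapdh and 1 Actb probe were empty on all 4 arrays, so an empty cell is not a sign of a silent gene.

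The difference of each gene is given on the log2 scale as WT TAC minus WT sham, so that 1 is a doubling and a negative value is lower after TAC. Across the 7020 genes the median difference was -0.01, 95.3% of genes lay within 0.5 either way, and the SD across genes was 0.25. For the STIM1KO pair the SD was 0.42 and 78.8% lay within 0.5. At 2-fold, 8 genes (0.114% of those measured) were higher on WT TAC and 14 (0.199%) lower, against 88 and 42 in the STIM1KO pair (1.25% and 0.598%). At 1.5-fold, 109 WT genes (1.55%) were higher and 91 (1.3%) lower. The array from the heavier hearts thus stood closer to its sham array than the STIM1KO TAC array did to its own. The plot of differences by signal level shows where these genes lay. In the dimmest of 4 equal classes of genes, at 29.3 to 53.6, 2 were at 2-fold higher and 6 lower. In the next classes the numbers were 4 and 3, then 0 and 1 at intensities of 103 to 263, and in the brightest class 2 and 4.

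**Figure D1:**
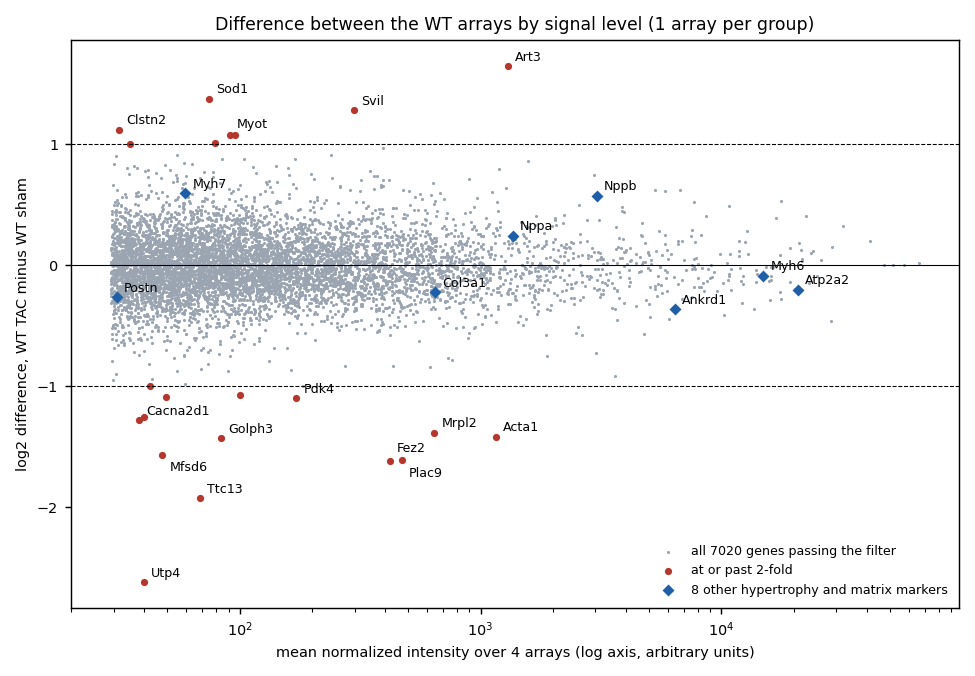
Each point is 1 of the 7020 genes, with its mean normalized intensity over the 4 arrays on a log axis and its log2 difference, WT TAC minus WT sham, with dashed lines at 2-fold. The 8 genes higher and the 14 lower at 2-fold are red, among them the hypertrophy marker Acta1, and 8 other markers of hypertrophy and matrix, in blue, lie inside the dashed lines.

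The only measure of error within an array comes from genes with more than 1 probe. In 53 genes 2 or more probes passed the level of 29.3, and the brightest was set against the second brightest. Their WT differences had a Pearson correlation of 0.19 and a Spearman correlation of 0.09 across genes, which share the same 2 arrays and are not replicates. These 2 probes had the same sign in 27 of the 53 genes, differed by a median of 0.22, and by more than 1.5-fold in 7. From these gaps the SD of 1 probe's difference was 0.26, which includes true differences between transcripts of a gene. That is as large as the SD of 0.25 across all genes. A difference of this size in a single gene cannot be told from probe error, nor can a somewhat larger one, since 0.26 is 1 SD and no upper limit. The sections below print many such values, beside larger differences and lists, only to describe these arrays. Aldoa, aldolase A of glycolysis, was one of the genes where both probes read higher after TAC, at 0.39 and 0.60. The constitutive chaperone Hspa8 was another, at 0.49 and 0.46. The 2 probes of Ppargc1a, a coactivator of mitochondrial genes, read -0.01 and -0.40.

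**Figure D2:**
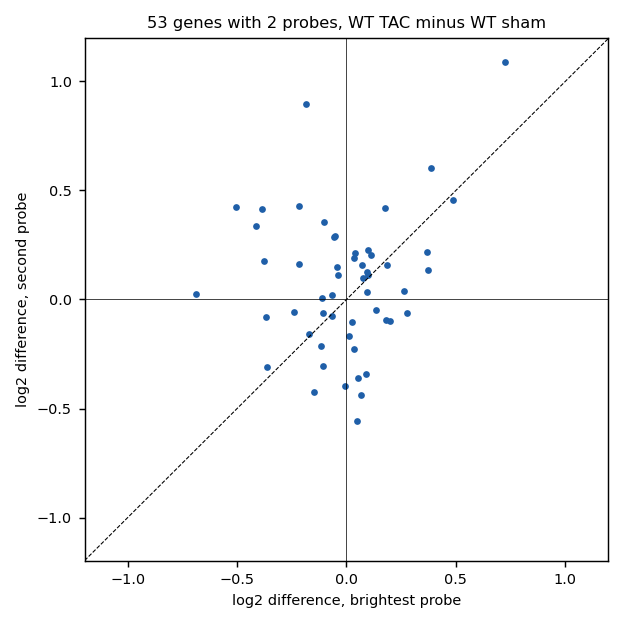
Each point is 1 of 53 genes with 2 or more probes above the filter, with the log2 difference WT TAC minus WT sham of its brightest probe on the horizontal axis and of its second brightest on the vertical axis. The points scatter around 0 with little trend along the dashed line of equality, and 27 of 53 lie in the quadrants of equal sign.

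Among the natriuretic peptides, the hormones by which a loaded heart promotes salt and water loss, Nppb was the clearer. Nppb, which encodes B-type natriuretic peptide, read 2535 on WT sham and 3778 on WT TAC, a difference of 0.58 or 1.49-fold. The STIM1KO arrays read 3045 after sham and 2919 after TAC, so WT TAC was the highest of the 4 arrays and WT sham the lowest. Nppa, the atrial peptide, read 1422 and 1684, a smaller difference of 0.24. Npr2, a guanylyl cyclase receptor of the natriuretic peptide family, was at 0.28, and the protease Corin, which activates the peptides, at -0.10. Of the 10 genes of peptides, enzymes and receptors listed, 5 passed the filter, 4 of them were above 0, where 47.3% of all genes were, and the median was 0.24.

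The wider list of fetal and hypertrophy genes split. Of 30 listed, 16 passed the filter, 10 were above 0 and 6 below, and their median was 0.08. Myh7, the slow beta-myosin heavy chain of the fetal ventricle, read 50.6 on WT sham and 76.3 on WT TAC, a difference of 0.59. WT TAC was the highest of the 4 arrays, but STIM1KO sham was close to it at 70.2, and STIM1KO TAC read 46.5. The adult counterpart of Myh7, Myh6, read 15832 on WT sham and 14927 on WT TAC, a difference of -0.08. The skeletal alpha-actin Acta1, a fetal gene as well, went the other way: 1881 on WT sham and 706 on WT TAC, 2.67-fold lower and 1 of the 14 genes lower at 2-fold. Acta1 was as low on STIM1KO TAC, at 688, with 1973 on STIM1KO sham, so both TAC arrays lay below both sham arrays. The smooth muscle actin Acta2 had the same order, with 1002 and 699 on the WT arrays, a difference of -0.52, and 1094 and 515 on the STIM1KO arrays. Ankrd1, a stretch-responsive ankyrin repeat protein of the sarcomere, read 8246 and 6415, a difference of -0.36. The calcineurin inhibitor Rcan1, itself a calcineurin target, read 277 and 292, a difference of 0.07. For the STIM1KO pair the median of the 16 genes was -0.28, with Myh7 at -0.59 and Nppb at -0.06.

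The 250 bases upstream of the start sites of Nppb, Myh7 and Acta1 are shown because these fetal genes are usually discussed together and stood at 0.58, 0.59 and -1.41 here. They are RefSeq sequences of build GRCm38.p6, 5′ to 3′ on the strand of the gene. Nppb lies on the plus strand at chr4:147985650-147985899, Myh7 on the minus strand at chr14:54994627-54994876 (the second of 2 listed start sites), and Acta1 on the minus strand at chr8:123894776-123895025. Capitals mark matches to the letters CATTCC, known as the M-CAT element bound by TEAD factors, to TATAAA, and to the CArG box bound by serum response factor, each searched on both strands.
Nppb: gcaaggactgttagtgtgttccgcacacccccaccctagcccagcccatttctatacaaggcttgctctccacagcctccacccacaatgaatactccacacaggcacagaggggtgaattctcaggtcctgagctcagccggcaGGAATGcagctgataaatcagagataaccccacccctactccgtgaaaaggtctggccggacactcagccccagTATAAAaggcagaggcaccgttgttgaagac
Myh7: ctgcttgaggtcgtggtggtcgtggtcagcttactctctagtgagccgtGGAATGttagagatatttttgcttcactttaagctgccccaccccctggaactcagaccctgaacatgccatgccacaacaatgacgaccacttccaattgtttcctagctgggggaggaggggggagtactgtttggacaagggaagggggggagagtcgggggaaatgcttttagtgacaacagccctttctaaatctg
Acta1: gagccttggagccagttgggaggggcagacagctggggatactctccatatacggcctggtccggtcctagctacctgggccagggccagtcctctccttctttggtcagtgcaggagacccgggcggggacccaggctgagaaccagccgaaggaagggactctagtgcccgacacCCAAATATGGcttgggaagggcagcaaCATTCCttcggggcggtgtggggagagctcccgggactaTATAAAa
Nppb held CATTCC on the opposite strand, read here as GGAATG, 105 to 100 bases before the start, and TATAAA 31 to 26 bases before it. Myh7 held the opposite-strand CATTCC 201 to 196 bases before this start, and the window of its other start site held none of the 3 motifs. Acta1 held a CArG box 73 to 64 bases before the start, CATTCC at 46 to 41 and TATAAA at 7 to 2. The matches do not overlap each other. Of 32817 mouse promoter windows of this length, 12.6% held CATTCC, 12.4% TATAAA and 1.47% a CArG box. The adult Myh6, also searched, held the opposite-strand CATTCC 206 to 201 bases before its start, and the window of Nppa held TATAAA but no CATTCC. A match describes letters in this window and says nothing about binding in these hearts.

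**Figure D3:**
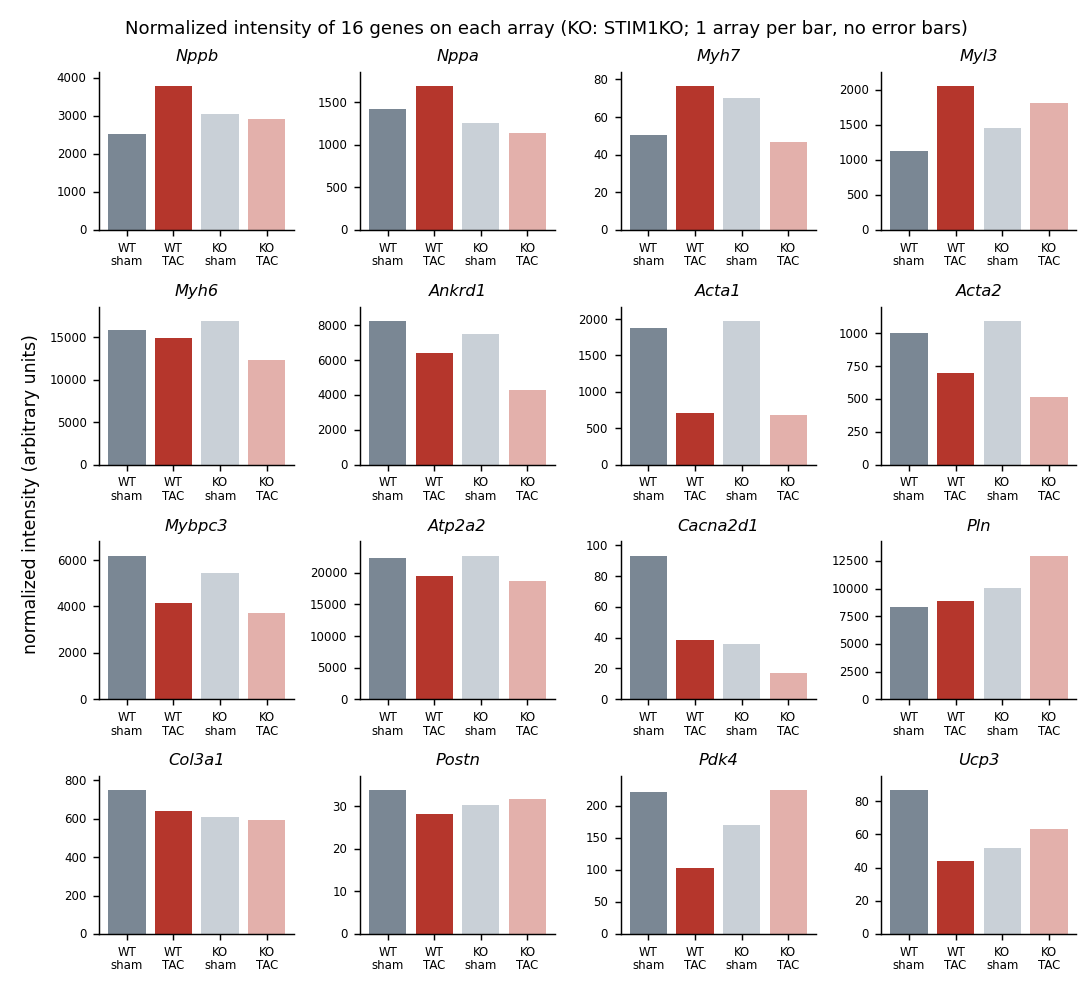
Each panel gives the normalized intensity of 1 gene on the 4 arrays, with the WT pair in full colour, the STIM1KO pair in pale colour, and no error bars because each bar is 1 array. Nppb, Nppa, Myh7 and Myl3 are highest on WT TAC, Acta1 and Acta2 are low on both TAC arrays, and Pdk4 and Ucp3 are lowest on WT TAC.

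The other lists of contractile genes had medians near 0, with a few members well apart. Of 6 myosin chains passing the filter, 3 were above 0, 2 below and 1 at 0, and the median of these chains alone was 0.19. With the light chain kinases Mylk and Mylk3, which share their list, the median of 8 genes was 0.04, and it took the other sign under at least 1 other setting. Myl3, the ventricular essential light chain, read 1124 on WT sham and 2047 on WT TAC, a difference of 0.86, with the STIM1KO arrays at 1455 and 1810 between them. Myl1, the essential light chain of fast skeletal muscle, read 1427 and 841, a difference of -0.76, and both STIM1KO arrays were lower still, at 451 and 539. Mylk, the smooth muscle myosin light chain kinase, read 55.9 and 36.7, a difference of -0.61. For these genes WT sham was an extreme array of the 4, lowest in Myl3 and highest in Myl1 and Mylk.

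Among the proteins of the thin filament, 7 of 15 were above 0 and 8 below, none at 1.5-fold, with a median of -0.03 whose sign depended on the setting. Cardiac troponin I, Tnni3, was the highest, at 0.32, and the actin-capping Tmod3 the lowest, at -0.33. At the Z-disc, which anchors the actin filaments, 7 of 14 genes were above 0 and 7 below, and the median was 0.00 under the reported setting and of either sign under others. A pair of its genes stood above 2-fold. Svil, supervillin, which ties actin and myosin to the membrane, read 158 on WT sham and 384 on WT TAC, a difference of 1.28. Myot, myotilin, which cross-links actin at the Z-disc, read 43.8 and 92.1, a difference of 1.07. Both were higher on STIM1KO TAC than on STIM1KO sham as well, Svil at 282 and 466, Myot at 55.9 and 307, so WT sham was the lowest array in each. Myot was at 0.99, just short of 2-fold, with an offset of 5.49 added before log2. Desmin, Des, the intermediate filament around the Z-disc, was at -0.32.

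Titin, M-band and myosin-binding genes were split at 6 above and 6 below 0, with a median of 0.04 whose sign depended on the setting. Mybpc3, cardiac myosin-binding protein C, read 6186 on WT sham and 4165 on WT TAC, a difference of -0.57, with 5437 and 3727 on the STIM1KO arrays, so it was lower on both TAC arrays. Myom2, an M-band protein, read 1033 and 1521, a difference of 0.56, while its STIM1KO difference was -1.02. Mybpc2, the fast skeletal isoform, was at 0.55 in WT and -0.94 in STIM1KO. The differences of Myom2 and Mybpc2 between the genotypes were not tested.

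**Figure D4:**
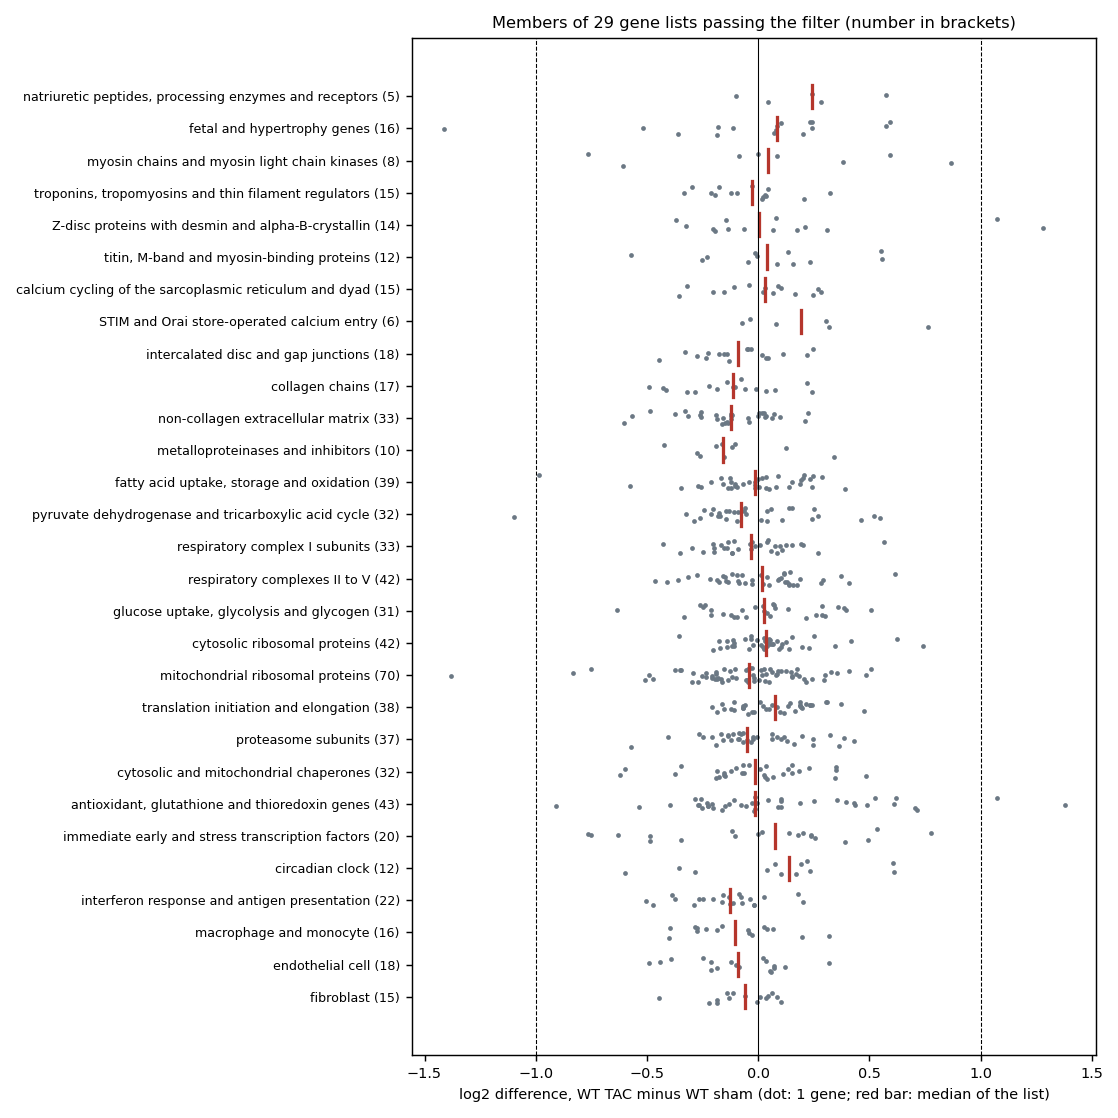
Each dot is the log2 difference, WT TAC minus WT sham, of 1 gene of a list that passed the filter, each red bar is the median of the list, and dashed lines mark 2-fold. The medians of the 29 lists shown lie between -0.16 and 0.24, and single members such as Acta1, Pdk4, Mrpl2, Svil and Sod1 stand apart from their lists.

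Genes that move calcium during the beat were close to their sham values. Of 15 passing genes of the sarcoplasmic reticulum and dyad, 9 were above 0 and 6 below, none at 1.5-fold, with a median of 0.03. Atp2a2, the pump SERCA2a that refills the store, read 22342 on WT sham and 19436 on WT TAC, a difference of -0.20. Its inhibitor phospholamban, Pln, read 8321 and 8861, a difference of 0.09. Triadin, Trdn, which holds calsequestrin to the release channel, was the lowest at -0.36, and the junctional protein Jph2 was at 0.27. These values are about the size of the error of 1 probe.

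Of 15 listed genes of voltage-gated calcium channel subunits and their regulators, 3 passed the filter, all below 0. Over the 14 measured genes, without the filter, the median was -0.25. Cacna1c, the pore of the L-type channel that triggers each beat, was below the filter level, at 8.46 on WT sham and 15.4 on WT TAC. Cacna2d1, the auxiliary alpha2delta1 subunit that brings the channel to the membrane, read 93.2 on WT sham and 38.4 on WT TAC, 2.43-fold lower, with 36.1 and 16.8 on the STIM1KO arrays. WT sham was the highest of the 4 arrays and STIM1KO TAC the lowest, and in each genotype TAC was lower than sham. Rrad, a GTPase that restrains the channel, read 782 and 561, a difference of -0.48, with -0.72 in STIM1KO. Cacna2d2 was at -0.17. Potassium channel genes had 4 of 6 above 0, with a median of 0.15 that turned to -0.09 without the filter on dim genes. Of them, Kcnq1 was at 0.27 and Kcnh2 at -0.33, and Kcnip2, the subunit of the transient outward current, read 82.7 and 91.3. Of 4 sodium channel and sodium pump genes passing the filter, 1 was above 0, and the pump subunit Atp1b1 was at -0.34.

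Of the genes of store-operated calcium entry, 6 of 14 passed the filter, 4 of them above 0, with a median of 0.19 that was 0.02 when only the WT arrays were normalized together. Over the 12 measured genes of the list, without the filter, the median was also 0.02. Stim1 itself, at 41.6 on WT sham and 33.9 on WT TAC, was at -0.30. It did not pass because the filter takes in the STIM1KO arrays, where it was lower. Cracr2a, a calcium-binding regulator of Orai1, read 27.6 on WT sham and 46.8 on WT TAC, a difference of 0.76, with 44.7 and 70.4 on the STIM1KO arrays. The channel genes Orai1 and Orai3 were at 0.32 and 0.30, and Saraf, which switches entry off, at 0.08. Calcineurin and CaM kinase genes were split, 7 above and 7 below 0, with a median of -0.01 whose sign depended on the setting. The lowest was Camk2a, a CaM kinase II subunit, at 43.3 and 28.3, a difference of -0.61. Rcan2, a relative of Rcan1, read 3065 and 2084, a difference of -0.56, and the histone deacetylase Hdac5, which CaM kinases move out of the nucleus, was at -0.43. The catalytic calcineurin subunit Ppp3cb was the highest, at 0.35.

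Cell junction genes leaned below 0. Of 18 passing genes of the intercalated disc, which couples muscle cells end to end, 12 were below 0, where 52.5% of all genes were, and the median was -0.09. The catenin Ctnna1 read 1721 on WT sham and 1264 on WT TAC, a difference of -0.44, and plakoglobin, Jup, was at -0.33. Integrin and dystrophin complex genes had 12 of 19 above 0 and a median of 0.05, with the integrin chain Itgb1 at 0.46 and its partner kinase Ilk at -0.43. Stretch-sensing genes had 5 of 9 above 0 and a median of 0.04.

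The signalling lists had medians close to that of all genes. Adrenergic and angiotensin genes had 7 of 17 above 0 and a median of -0.03, and TGF-beta genes 7 of 13 and 0.01, both of a sign that depended on the setting. Insulin and IGF signalling genes had 6 of 16 above 0 and a median of -0.04. Among them the receptor inhibitor Grb14 read 764 on WT sham and 557 on WT TAC, a difference of -0.46. Igf1, the growth factor, was at -0.31 and the binding protein Igfbp7 at 0.37. Smad6, an inhibitor of the TGF-beta family, was at 0.35, and the ligand Tgfb2 at -0.15.

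Genes of the extracellular matrix were on the low side of the comparison. Among 17 collagen chains, 13 lay below 0 and 4 above, the median being -0.11 and none at 1.5-fold. Col3a1, a main fibrillar collagen of the heart, read 748 on WT sham and 641 on WT TAC, a difference of -0.22. Col1a1, whose probe was below the filter, read 35.5 and 31.1, a difference of -0.19. Col12a1, a collagen that coats fibrils, was the lowest at -0.49, followed by Col8a2 at -0.43 and Col5a2 at -0.41. Of 33 other matrix genes, 22 were below 0 and 10 above, with a median of -0.12. Thbs2, a matricellular thrombospondin, read 40.7 and 26.9, a difference of -0.60, and the elastic fibre protein Emilin1 was at -0.57. Ccn1, the matricellular CCN1, was at -0.49, Ccn2, also called CTGF, at -0.12 and Postn, periostin of activated fibroblasts, at -0.26.

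Matrix-cutting enzymes and their inhibitors had 8 of 10 below 0 and a median of -0.16. The protease Adamts1 was at -0.42 and the inhibitor Timp3 at -0.26, and Mmp23 was the highest at 0.34. Genes that process collagen had 8 of 12 below 0 and a median of -0.03 whose sign depended on the setting. The medians of the collagen, matrix and protease lists stayed below 0 under all settings tried. In the STIM1KO pair the same 3 lists had medians of 0.01, 0.10 and 0.06. WT sham was the highest of the 4 arrays in 6 of the 17 collagen genes, 13 of the 33 other matrix genes and 5 of the 10 protease genes, where it was the highest in 26.5% of all genes.

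Markers of fibroblasts and endothelium were below 0 about as often as all genes, of which 52.5% were. The summed level of 20 measured fibroblast markers was 14745 on WT sham and 12060 on WT TAC, a log2 ratio of -0.29. Gsn, gelsolin, an actin-severing protein that muscle also makes, read 8111 and 5949, and without it the sums were 6633 and 6111, a ratio of -0.12. Of the 15 fibroblast markers passing the filter, 9 were below 0, with a median of -0.06. The 17 measured markers of activated fibroblasts summed to 1717 and 1410. Without the smooth muscle actin Acta2 the sums were 716 and 711, so that gene made up nearly all of the gap. Their median over the 9 passing genes was -0.11, which turned to 0.03 without the filter. Endothelial markers summed to 11510 and 10539, and to 7471 and 7055 without Ly6c1, with 10 of 18 below 0 and a median of -0.09. Among them Flt1, a receptor of vascular growth factor, read 625 and 445, and the tyrosine kinase Tie1 554 and 408. The part of these cell types in the matrix values was not tested, and in whole tissue fewer cells of a type and less RNA per cell cannot be told apart.

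Ventricular muscle markers summed to 304569 on WT sham and 318241 on WT TAC, with 10 of 14 passing genes above 0 and a median of 0.07. Macrophage markers summed to 3501 and 3514, with 11 of 16 below 0 and a median of -0.11, against 0.37 in the STIM1KO pair. The complement gene C1qc was the highest of them at 0.32, and Ly86 and Lgals3 were the lowest at -0.40. Smooth muscle and pericyte markers summed to 4385 and 3915, and to 3383 and 3216 without Acta2, with 8 of 13 above 0 and a median of 0.05 whose sign depended on the setting. Markers of adipocytes had 4 of 5 below 0, but summed to 44542.3 on WT sham and 46668.5 on WT TAC, and to 14357.7 and 13066.1 without Cox8b. Those of Schwann cells and neurons had 6 of 8 below 0 and summed to 711 and 675, and to 506 and 502 without Kcna1. Atrial markers summed to 1938 and 2205, and to 516 and 521 without Nppa, with 4 of 6 above 0. Few markers of lymphocytes (2), granulocytes and mast cells (2), red cells and platelets (4), skeletal muscle (4), epicardium (0) and lung or thymus (1) passed the filter. Of these, the platelet chemokine Ppbp was at 0.61, the immunoglobulin chain Ighm at 0.48 and the neutrophil protein S100a9 at -0.95.

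Fuel genes as a group had a median at that of all genes, with a pair of muscle fuel regulators far below. Among 39 genes of fatty acid uptake and oxidation, 18 lay above 0 and 20 below, the median being -0.01, whose sign depended on the setting. Ucp3, a mitochondrial carrier that follows fatty acid supply, read 86.5 on WT sham and 43.7 on WT TAC, a difference of -0.98, with 51.7 and 63.0 on the STIM1KO arrays. WT sham was the highest array and WT TAC the lowest. Acsl1, which activates long-chain fatty acids, read 526 and 353, a difference of -0.58, with 490 and 345 in STIM1KO. Cpt2 of the carnitine shuttle was at -0.35 and the thioesterase Acot2 at 0.39.

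Pdk4, the kinase that shuts pyruvate dehydrogenase and so spares glucose, read 222 on WT sham and 104 on WT TAC, 2.14-fold lower, and the STIM1KO arrays read 171 and 224. WT TAC was the lowest of the 4 arrays. In the list of pyruvate dehydrogenase and tricarboxylic acid cycle genes to which it belongs, 19 of 32 were below 0, with a median of -0.08. Pdhx, the binding subunit of the dehydrogenase, read 554 and 810, a difference of 0.55. The cycle subunit Idh3g read 6158 and 8823, a difference of 0.52, and in both WT TAC was the highest array and WT sham the lowest. The pyruvate carrier Mpc1 was at 0.46. Ucp3, Pdk4, Acsl1 and Acot2 are known targets of the fatty acid receptor PPAR-alpha. In a list of 26 such targets that was drawn up after these values were seen, 19 passed the filter, 9 were above 0 and 9 below, and the median was 0.00.

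Glycolysis genes had 17 of 31 above 0 and a median of 0.02. The glucose transporter Slc2a1 read 51.5 on WT sham and 73.1 on WT TAC, a difference of 0.51, and WT TAC was the highest array and WT sham the lowest. Hexokinase Hk1 was at 0.40, Aldoa at 0.39, and Phka1, a subunit of phosphorylase kinase, at -0.64. The insulin-sensitive transporter Slc2a4 was at -0.12. Respiratory genes had medians of -0.03 for complex I, with 14 of 33 above 0, and 0.02 for complexes II to V, with 22 of 42, each of a sign that depended on the setting. ATP synthase genes of the same subunit differed in direction: Atp5g2 read 5137 and 7877, a difference of 0.62, and Atp5g3 38715 and 28078, a difference of -0.46. These genes encode the same mature protein, the c subunit. The creatine kinase list had 6 above and 6 below 0, with Ckmt2 at -0.28.

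Among metabolic regulators, 7 of 18 were above 0, with a median of -0.03 whose sign depended on the setting. Ppargc1b, a coactivator of oxidative genes, read 174 on WT sham and 108 on WT TAC, a difference of -0.68, with 150 and 134 in STIM1KO between them. The retinoid receptor Rxrg was at 0.52, Pparg at 0.38 and the mitochondrial deacetylase Sirt3 at -0.36.

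Genes for making protein, which growth requires, had list medians close to 0. Among 38 translation factors, 24 lay above 0, where 47.3% of all genes did, and 14 below, the median being 0.07 and none at 1.5-fold. The eIF3 subunit Eif3l read 395 on WT sham and 550 on WT TAC, a difference of 0.48. Of 42 cytosolic ribosomal proteins, 26 were above 0 and 16 below, with Rplp1 at 0.74 and Rps4x at 0.62. Ribosomal protein genes have many near-identical pseudogene copies, so a probe may read more than 1 of them. Mitochondrial ribosomal proteins had 30 of 70 above 0 and a median of -0.04 whose sign depended on the setting, with 3 lower at 1.5-fold, as were 1.3% of all genes. Mrpl2 of its large subunit read 1369 and 525, a difference of -1.38, Mrpl40 was at -0.83 and Mrps24 at -0.75. Ribosome biogenesis genes had 18 of 37 above 0, with Utp4 far below the rest.

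Genes of protein quality control were split. Chaperones had 16 above and 16 below 0, with a median of -0.02 whose sign depended on the setting. The cytosolic Hspa4 read 821 on WT sham and 533 on WT TAC, a difference of -0.62, and the folding chamber subunit Cct5 was at -0.60, both lower on STIM1KO TAC as well, at -0.84 and -0.92. Proteasome subunits had 23 of 37 below 0, a median of -0.05 of unsettled sign and Psmb4 at -0.57. The unfolded protein response list had 14 of 24 above 0 and a median of 0.06, with the chaperone Canx at 0.61 and the disulfide isomerase Pdia4 at -0.49. Of 10 atrophy and ubiquitin ligase genes, 6 were above 0, with a median of 0.12, and the muscle ligase Fbxo32 was at -0.46. Autophagy genes had 16 above and 16 below 0, with the starting kinase Ulk1 at 0.69 and the mitophagy receptor Bnip3l at -0.60.

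Antioxidant genes had the most members past 1.5-fold of the lists, 6 higher and 1 lower of 43, where 1.55% and 1.3% of all genes were, while the median was -0.01, of a sign that depended on the setting. Sod1, the cytosolic superoxide dismutase, read 43.9 on WT sham and 114 on WT TAC, 2.60-fold higher, with 80.1 and 77.5 on the STIM1KO arrays. Pon2, an intracellular paraoxonase, read 67.4 and 142, 2.10-fold higher, with 113 and 76.6. Both had WT sham as the lowest and WT TAC as the highest of the 4 arrays. Mitochondrial thioredoxin Txn2 was at 0.72, the quinone reductase Nqo1 at 0.70, the peroxiredoxin Prdx2 at 0.62 and their transcription factor Nfe2l2 at 0.61, all named after their values were seen except Txn2. The peroxiredoxin Prdx5 was the exception, with 3855 and 2050, a difference of -0.91, and 3784 and 5788 in STIM1KO. The other members lay closer to 0, with 24 of 43 below it.

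Immediate early and stress transcription genes counted 11 above and 9 below 0, with a median of 0.08 whose sign depended on the setting. Ier3, an early response survival gene, read 306 on WT sham and 524 on WT TAC, a difference of 0.78. Dusp6, a phosphatase of ERK, read 88.3 and 51.9, a difference of -0.77, Gadd45b was at -0.75 and the factor Klf6 at -0.63. Of 12 clock genes, 9 were above 0, with a median of 0.14. Nfil3 and Bhlhe40, repressors within the clock, read 30.8 and 47.0, and 103 and 156, differences of 0.61 and 0.60. Ciart, another repressor, read 35.2 and 23.2, a difference of -0.60. The labels used here give no hour of sampling. Hypoxia and vessel growth genes had 12 of 19 below 0 and a median of -0.05, with the apelin receptor Aplnr the highest, at 87.9 and 154, a difference of 0.81. Apoptosis genes had 5 above and 5 below 0, with Mcl1 at -0.52 and Endog at 0.42. Cell cycle genes had 8 of 13 below 0, a median of -0.09 of unsettled sign, Ube2c at 0.54 and Ccnd2 at 0.41.

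Interferon response and antigen presentation genes had the largest share on one side of 0 among lists with at least 10 genes passing. Of 22 passing genes, 19 were below 0 and 3 above, with a median of -0.13, although none reached 1.5-fold. The transcription factor Irf7 read 40.1 on WT sham and 28.2 on WT TAC, a difference of -0.51, and Irf9 49.8 and 35.9, a difference of -0.47. The RNA sensor Ifih1 was at -0.39 and the antiviral Rsad2 at -0.38. WT sham was the highest of the 4 arrays in 12 of the 22 and WT TAC the lowest in 7, where the shares among all genes were 26.5% and 19.1%. In the STIM1KO pair the median was -0.05. Cytokine and inflammation genes had 11 of 20 below 0, a median of -0.03 whose sign depended on the setting, Ccl2, the monocyte chemokine, at 0.53 and complement C3 at -0.41.

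The genes with the largest differences came from no single list. Art3, a surface member of the ADP-ribosyltransferase family, was the highest, at 578 on WT sham and 1805 on WT TAC, 3.13-fold, with 1060 and 2540 on the STIM1KO arrays. After Art3, Sod1 and Svil came Clstn2, a cadherin-like calsyntenin, at 15.1 and 32.9, a difference of 1.12. Cyp2d12, a cytochrome P450 with close paralogs whose transcripts its probe may also bind, stood at 1.01, and Sctr, the secretin receptor, read 20.2 and 40.5. Just inside 2-fold were the splicing factor Prpf19 at 0.96, the mitochondrial disaggregase Clpb at 0.91 and Retnla at 0.91. Retnla, a marker of alternatively activated macrophages, read 44.4 and 83.7 on the WT arrays and 46.8 and 52.5 on the STIM1KO arrays, so WT TAC was the highest.

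At the other end Utp4, a part of the complex that processes ribosomal RNA, read 112 on WT sham and 18.3 on WT TAC, a difference of -2.62, and 57.4 and 21.8 on the STIM1KO arrays. Ttc13, a tetratricopeptide repeat protein, read 101 and 26.5, a difference of -1.92, and Fez2, a relative of a protein of axon outgrowth, 519 and 169, a difference of -1.62. Plac9, a small secreted protein, read 675 and 221, a difference of -1.61, with 637 and 517 in STIM1KO. The mouse annotation has several near-identical Plac9 genes on chromosome 14, so its probe cannot be tied to 1 of them. Mfsd6 was at -1.56 by its brighter probe and 0.17 by a dim one that read 3.99 and 4.50. Golph3, a Golgi membrane protein, was at -1.43, Trim25, a ubiquitin ligase of antiviral sensing, at -1.25, C1qtnf12, the secreted adipolin, at -1.09 and Ap3m1, an adaptor subunit of lysosomal sorting, at -1.07. WT TAC was the lowest of the 4 arrays in 10 of the 14 genes lower at 2-fold, where it was the lowest in 19.1% of all genes. Of the 8 genes higher at 2-fold, WT TAC was the highest array in 2 and WT sham the lowest in 8. Both sets were chosen by the difference between the WT arrays, which favours such ranks, so the counts only describe where the other arrays lay.

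**Figure D5:**
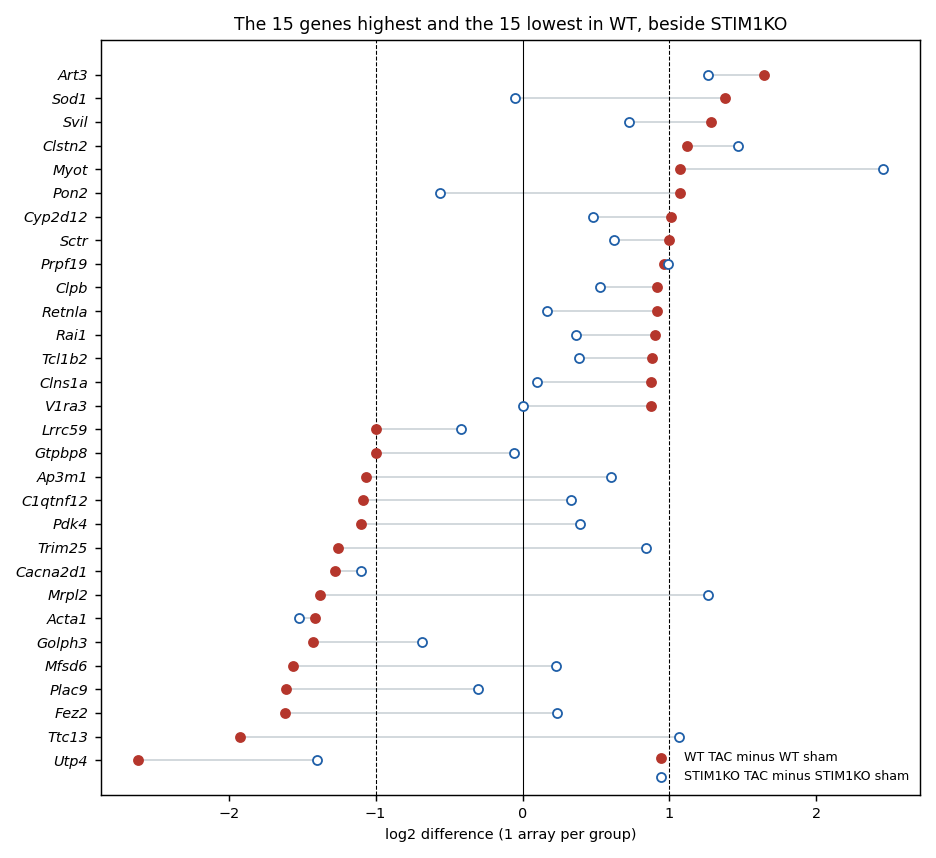
Filled points give the log2 difference WT TAC minus WT sham for the 15 genes highest and the 15 lowest in WT, and open points give STIM1KO TAC minus STIM1KO sham for the same genes, with 1 array per group and dashed lines at 2-fold. The genes were chosen by the filled points. Art3, Clstn2, Myot, Acta1, Cacna2d1 and Utp4 are past 2-fold in the same direction in both pairs, while Ttc13 and Mrpl2 are past 2-fold in opposite directions.

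The STIM1KO pair shares no array with the WT pair, but its arrays entered the common normalization and the filter on the mean over 4 arrays. With the mean of the WT arrays alone held to the same level, Clstn2 and Sctr dropped out, and of the 6 genes left at 2-fold higher in WT, 4 were above 0 in STIM1KO and 2 at 2-fold higher. With all 4 arrays in the filter, of the 8 genes at 2-fold higher in WT, 6 were above 0 in STIM1KO, where 49.4% of all genes were, and 3 were at 2-fold higher, with a median of 0.67. Of the 14 lower in WT, 6 were below 0 in STIM1KO, where 50.5% of all genes were, 3 were at 2-fold lower and 2 at 2-fold higher, with a median of 0.23. At 1.5-fold more genes could be set side by side. Of 109 genes higher in WT, 77 were above 0 and 29 were higher at 1.5-fold in STIM1KO, which is 26.6% against 7.31% of all genes, and 1 was lower; by the WT level alone the share was 24.3% of 103 against 6.95%. Of 91 lower in WT, 62 were below 0 and 23 were lower at 1.5-fold, 25.3% against 7.11% of all genes, and 10 were higher; by the WT level alone it was 28.3% of 92 against 7.88%. These shares describe 4 arrays and were not tested over animals.

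WT sham was an extreme of the 4 arrays in many of these genes. It was the lowest array in 97 of the 109 genes higher at 1.5-fold, where it was the lowest in 26.0% of all genes. WT TAC was the highest in 46 of the 109, against 16.8% of all genes. Of the 91 genes lower at 1.5-fold, WT sham was the highest in 60 and WT TAC the lowest in 44. Among all genes these shares were 26.5% and 19.1%. A gene chosen for a large difference between both WT arrays has to have one of them near an end, so these counts describe where the other arrays lay. Both ends lay in the WT pair in 503 of the 7020 genes, in 34 of the 109 and in 17 of the 91. Nppb, Sod1, Pon2, Myl3, Idh3g, Pdhx, Slc2a1 and Aplnr had both ends in the WT pair, WT sham lowest and WT TAC highest. Utp4, Golph3, Plac9, Ucp3, Ppargc1b, Rcan2, Mcl1 and Irf7 had them the other way round.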

How the data were processed

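Left ventricular RNA was extracted with ISOGEN II, amplified as amino allyl aRNA and coupled to Cy5, per the labels' protocols. Each probe of an array has 1 intensity in the deposited table, on a linear scale. Not given in the sources used here are the scanner, the background correction and why some cells are empty. Of 23473 probes, 19607 were filled on each of the 4 arrays and 16631 had a gene symbol, of which 3947 were updated through RefSeq gene names (GRCm38.p6) and 62 matched none. The medians of the 4 arrays over shared probes spread over 0.101 on the log2 scale. Log2 values of probes with a value on all 4 arrays were quantile normalized. The brightest probe stood for a gene, and the upper part of the genes by mean over the 4 arrays, from the median of 4.87 up, was kept. The difference is WT TAC minus WT sham. No test was run, since each group has 1 array, which sets the precision.

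The pair of arrays and the 62 gene lists, 15 of them cell type markers, were chosen with earlier results of these data known. Named genes are 20 fixed markers, the 15 largest differences each way without clone names, and up to 4 members of each list with the largest absolute difference, of which the text prints part. Myl2, Prdx2, Nqo1 and Nfe2l2 were named after their values were seen. Cacna1c, which was below the filter, is outside the naming rule as well. Alternatives were median centring, deposited values, loess, quantile normalization of the WT arrays alone, other filters, an offset, the mean over probes and a 1.5-fold threshold. After the data were seen, marker sums without their most differing gene and a filter on the WT arrays alone were added. Promoter letters were searched in RefSeq sequences. Python 3.11.15, pandas 2.3.3, NumPy 2.4.6, statsmodels 0.14.6 and matplotlib 3.10.9 were used, and the steps were tested on simulated data.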

Additional observations from a re-analysis of the deposited data

Results flagged for a closer look

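Ttc13 differed in opposite directions in the 2 genotypes. Its intensity went from 101 on WT sham to 26.5 on WT TAC, a log2 difference of -1.92, and from 62.4 on STIM1KO sham to 131 on STIM1KO TAC, a difference of 1.07. Mrpl2 did so too, with 1369 and 525 on the WT arrays, a difference of -1.38, and 315 and 758 on the STIM1KO arrays, a difference of 1.26. Each was past 2-fold in both pairs, and the difference between the genotypes was not tested, since each group has 1 array. Probes with no gene symbol were left out of the gene lists. Among 2117 of them at or above the filter level, 11 were at 2-fold higher on WT TAC (0.520%) and 2 lower (0.0945%), against 9 higher (0.127%) and 14 lower (0.198%) of 7079 named probes. The largest difference among them was 2.03 and the lowest -1.22.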

How the results depend on the processing

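No paired analysis was possible because each group has 1 array. At 2-fold, 8 genes higher and 14 lower became 131 and 161 when dim genes were kept, 2 and 5 with a filter at the 75th percentile, and 109 and 91 at 1.5-fold. With an offset of 5.49 before log2, 4 were higher, and Utp4 stood at -2.31. The offset took Clstn2 (0.90), Cyp2d12 (0.94), Myot (0.99), Sctr (0.84), C1qtnf12 (-0.99) and Gtpbp8 (-0.85) inside 2-fold. Higher genes made up 36.4% of those at 2-fold, 44.9% without the filter, 25% with the offset and 54.5% at 1.5-fold. Without the filter, list medians were 0.0418 for natriuretic, 0.23 for myosin, -0.14 for Z-disc, 0.0213 for store-operated entry, -0.14 for calcineurin, -0.0907 for potassium channel, 0.18 for immediate early, 0.0237 for cell cycle, 0.0309 for activated fibroblast, -0.20 for smooth muscle and -0.0497 for adipocyte genes. Potassium channel and activated fibroblast genes had 0.15 and -0.11 with it, so both signs reversed. With the stricter filter the medians were 0.0840 for adrenergic, -0.16 for apoptosis and 0.0256 for cell cycle genes. Loess gave -0.15 for creatine genes, deposited values 0.050 for proteasome and 0.0881 for antioxidant genes, and quantile normalization of the WT arrays alone 0.0201 for store-operated entry. Of 53 lists 27 kept 1 sign under all settings tried and 26 did not. Of 246 named genes 244 kept theirs, as did all 62 that were past 1.5-fold. No scaling moved the median over all genes by more than 0.1. Precision is limited by 1 array per group, and for a single gene by the probe error.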

Other observations

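Some probes had a value on 1 of the WT arrays and an empty cell on the other, and so entered no comparison. There were 1020 with a value on WT TAC alone, 604 of them named, with a median deposited intensity of 1.84 and a highest of 11.9. There were 852 with a value on WT sham alone, 551 of them named, with a median of 1.90 and a highest of 13.1. The highest of the latter belonged to Kcng3, a modifier subunit of potassium channels. All of these lie below the level of 29.3 that the genes described had to reach.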
